A study of Mus musculus with 8 samples.

Results

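Gas5, Snhg1, Snhg3, Snhg5, Snhg6, Snhg8, Snhg12 and Taf1d are 8 genes that carry snoRNAs in their introns and do not encode ribosomal proteins. They were measured in mouse pancreatic islets with and without a set of snoRNAs from another host, were taken by name, and all stood among the 24469 genes of both deposited tables. RNA came from hand-picked islets of 8-week-old mice, with 4 libraries from wild-type C57BL/6 mice and 4 from mice of that background lacking U32a, U33, U34 and U35a, snoRNAs hosted by the ribosomal protein gene Rpl13a. The labels do not say how the snoRNAs were removed, whether they are missing from all tissues, or the sex of the mice. None of the 8 genes hosts a targeted snoRNA.

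Small nucleolar RNAs guide chemical changes of ribosomal RNA: box C/D snoRNAs guide ribose methylation and H/ACA snoRNAs guide pseudouridylation. Most mammalian snoRNAs are cut from introns, so each depends on transcription and splicing of a host gene. Many noncoding hosts keep no known protein product, and their spliced RNA is known to be removed by nonsense-mediated decay, a pathway coupled to translation. Host genes are also known for a terminal oligopyrimidine (TOP) start, a stretch of C and T at the first transcribed bases that ties the RNA to the growth state of the cell.

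The start sites show this feature unevenly, and the windows below are printed for that reason. Each holds 10 bases before and 20 bases from an annotated start, in the direction of transcription, from RefSeq on build GRCm38.p6. Capitals mark the longest run of C and T. The submitters' build was mm9, so these windows describe the genes and were not joined to the counts by position. Of the 8 genes 7 matched, Gas5 with 2 starts, and Snhg6 had no entry.
Gas5, upstream start (chr1:161034591-161034620, + strand): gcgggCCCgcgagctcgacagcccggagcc
Gas5, downstream start (chr1:161035156-161035185, + strand): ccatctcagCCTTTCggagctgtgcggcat
Snhg1 (chr19:8723477-8723506, + strand): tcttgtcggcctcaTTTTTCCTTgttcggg
Snhg12 (chr4:132308668-132308697, + strand): ttctcagTCCTTTCTCgcttcatccgcggt
Snhg8 (chr3:123508317-123508346, - strand): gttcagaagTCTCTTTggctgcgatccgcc
Snhg5 (chr9:88522878-88522907, - strand): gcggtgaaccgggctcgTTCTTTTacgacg
Snhg3 (chr4:132353667-132353696, - strand): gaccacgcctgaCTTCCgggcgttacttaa
Taf1d (chr9:15306204-15306233, + strand): gtgtactcacgcgagatttcgTCCTTgtcc
A run of at least 5 pyrimidines stood in 7 of these 8 windows and in 46.4% of all 32851 windows of the table. Such a run covered the start base itself in 3 of the 8, the downstream start of Gas5, Snhg8 and Snhg12, against 10.1% of all windows. Snhg1 had a run of 9 that began at base 5 of the transcript, and a run of 4 over its start base. In the remaining windows, those of Snhg3, Snhg5 and Taf1d and the upstream start of Gas5, the start base lay in no pyrimidine run.

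The snoRNAs carried by these genes are themselves short and structured, as 3 of them show (GENCODE M21 on GRCm38, written as DNA). For the box C/D snoRNAs Snord87 of Snhg6 and Snord47 of Gas5, capitals mark the letters TGATGA and CTGA of boxes C and D. For the H/ACA snoRNA Snora24 of Snhg8, capitals mark the ACA near its end.
Snord87: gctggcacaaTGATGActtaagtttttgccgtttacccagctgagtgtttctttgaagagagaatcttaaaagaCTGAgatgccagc
Snord47: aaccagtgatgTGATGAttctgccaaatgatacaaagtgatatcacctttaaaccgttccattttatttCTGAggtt
Snora24: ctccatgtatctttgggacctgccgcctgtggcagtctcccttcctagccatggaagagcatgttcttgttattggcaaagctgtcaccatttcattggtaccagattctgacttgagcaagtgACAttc
Searched on the transcript strand, TGATGA within the first 20 and CTGA within the last 20 bases stood in 68 of 98 Snord transcripts (69.4%), and ACA within the last 10 bases in 40 of 42 Snora transcripts (95.2%). By that annotation 9 snoRNA loci lie inside Gas5, 8 each inside Snhg1 and Taf1d, 4 inside Snhg12, 2 each inside Snhg3 and Snhg5, and 1 each inside Snhg6 and Snhg8. Of 36 snoRNA names listed for the 8 hosts, only 8 were rows of the count table, and they held 4 counts over the wild-type and 8 over the knockout libraries. Snord87 and Snora24 had 0 counts in all 8 libraries, which does not show that these RNAs were absent from the islets. The other 28 snoRNAs were not analysed here. Only 1 locus each in Snhg3 and Snhg6 lies clear of every annotated exon of its host, so in all 8 hosts but Snhg6 reads from snoRNA loci could enter the host counts.

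The libraries held 21.2 to 41.1 M assigned counts (M, 1000000). Wild-type libraries had 15 counts on the 4 targeted snoRNAs, all on Snord32a and Snord33, and knockout libraries had 0. Islet cell and hormone markers took 9.09 to 24.4% of counts, and acinar markers of the exocrine pancreas took 2.25 to 31.0%. Wild-type replicate 1 stood apart, with the highest depth, 29.5% acinar counts against 2.25 to 15.9% in the other wild-type libraries, and the lowest library weight in limma-voom (0.483). Knockout replicate 2 stood apart by liver markers, at 0.780% of counts against 0.0202 to 0.0451% in the other 7. Xist was high in 3 libraries (wild-type replicate 4, knockout replicates 1 and 4). Levels are given as CPM, counts per 1000000 scaled with TMM, a factor that offsets a few very abundant genes. The deposited RPM, reads per 1000000 with no such factor, are given for a host gene where they change the order of libraries described.

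In the quasi-likelihood test of edgeR 0 of the 8 host genes passed an adjusted p of 0.05, and 2 of all 13617 genes did (0.0147%). Of the 8, 7 had a positive log2 fold change, knockout against wild type, where 51.3% of all genes tested did, and their median was 0.38 beside 0.01 over all genes. Snhg12 was the exception. At an unadjusted p under 0.05 stood 2 of 8, Snhg6 and Taf1d, both higher in the knockout, against 18.7% of all genes in either direction and 8.42% in that direction. In bulk tissue, fewer cells of a type and less RNA per cell cannot be told apart. The directions of the 8 genes were the same with each library left out and under every scaling tried. With 1 library left out the median was lowest, at 0.27, without wild-type replicate 2 and highest, at 0.46, when wild-type replicate 1 was left out. On the RPM scale, with limma-trend on log2 RPM plus 1 and plus 0.1, it was 0.14 and 0.22. Of 35 acinar markers tested 0 passed the adjusted threshold and 1 stood at an unadjusted p under 0.05, while 34 had a positive log2 fold change, with a median of 0.53. None of the 36 in the table was at 0 in all libraries, and their summed share overlapped between genotypes, at 2.25 to 29.5% in wild type and 5.93 to 31.0% in knockout. With that share as a covariate the median of the host genes was 0.32. Lower at an unadjusted p under 0.05 in edgeR were 1398 of all 13617 genes and 6 of 13 islet cell and hormone markers. Of these markers 0 passed, 9 had a negative value, and the median was -0.19. Their summed share was 10.3 to 24.4% in wild type and 9.09 to 16.8% in knockout, and none was at 0 in all libraries. Of 6 stromal markers tested 5 had a positive value, with a median of 0.74, 0 passed and 1 was higher at an unadjusted p under 0.05. Their summed share was 0.00314 to 0.00767% in wild type and 0.00228 to 0.0139% in knockout. The part of the islet and stromal markers in the host gene values was not tested. Without knockout replicate 2, the library with liver RNA, the median of the host genes was 0.35. Without both wild-type replicate 1 and knockout replicate 2 it was 0.43, and Taf1d passed (edgeR adjusted p = 0.0496, where its alternatives ran from there to 1), as did 9.47% of all genes in that fit.

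**Figure D1:**
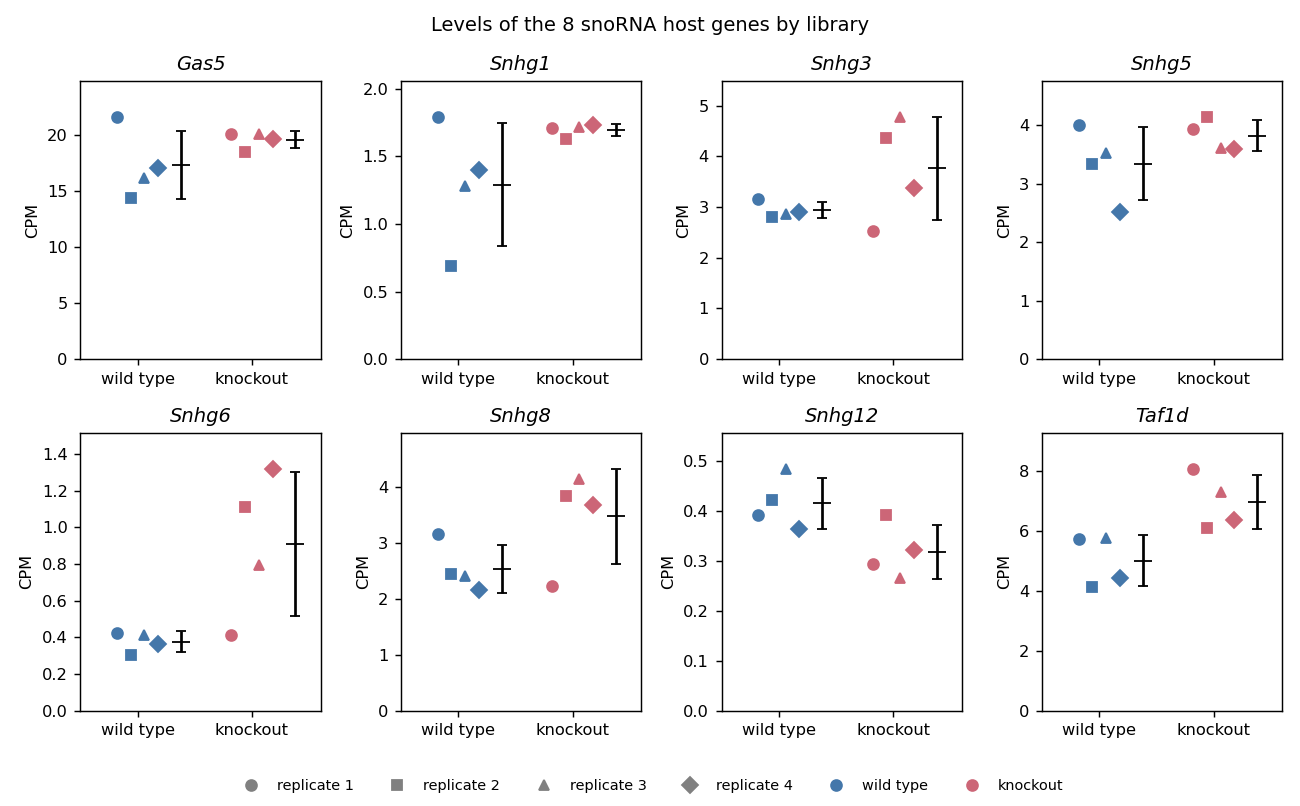
Level of each host gene (vertical axis, CPM from 0) in the 4 wild-type and 4 knockout libraries, with marker shapes for replicate numbers and a bar for mean ± SD. All 4 knockout libraries lie above all wild-type libraries for Taf1d, and 3 of 4 do for Snhg3, Snhg6 and Snhg8.

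Snhg6, the host of Snord87, had the largest fold change of the 8. Its counts were 13, 10, 12 and 13 in replicates 1 to 4 of wild type and 7, 34, 18 and 41 in those of the knockout. Scaled to library size these were 0.424, 0.301, 0.415 and 0.364 CPM in wild type and 0.412, 1.11, 0.795 and 1.32 CPM in knockout. Knockout replicates 2, 3 and 4 exceeded every wild-type library, while knockout replicate 1 lay inside the wild-type range as CPM. As RPM, replicates 2, 3 and 4 of the knockout also exceeded every wild-type library. Knockout replicate 1, at 0.188 RPM, was then the lowest of all 8 libraries, just below wild-type replicate 1 at 0.193. The means were 0.376 ± 0.0564 and 0.908 ± 0.394 CPM (SD, n = 4 each), a log2 fold change of 1.31 ± 0.36 (SE). The 95% interval ran from 0.51 to 2.10, and edgeR gave an adjusted p of 0.150 (unadjusted 0.00407). In wild type the spread of 15.0% (coefficient of variation) was below the 28.9% that counting alone gives at a mean of 12 counts, and in knockout it was 43.4% beside 20%. Leaving out knockout replicate 1 gave 1.51, and leaving out knockout replicate 4, the highest, gave 1.07. The gene Mcmdc2 overlaps Snhg6 by 127 bases on the other strand and had 1 count over all 8 libraries.

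Taf1d is the protein-coding member. It encodes a subunit of SL1, the factor that recruits RNA polymerase I to the ribosomal RNA genes, and carries snoRNAs in its introns. It was at 5.71, 4.12, 5.74 and 4.43 CPM in wild-type replicates 1 to 4 and at 8.06, 6.10, 7.29 and 6.36 CPM in knockout replicates 1 to 4. The genotypes did not overlap, with all knockout libraries higher, a pattern shown by 3.68% of all genes tested. The opposite order, with all knockout libraries lower, was shown by 4.66% of all genes and by 0 of the 8, so that 1 of the 8 had genotypes without overlap in either direction against 8.34% of all genes. On the RPM scale they did overlap: knockout replicate 3, at 3.10, lay below wild-type replicate 3, at 3.32. The log2 fold change was 0.47 ± 0.15 (SE, 95% interval 0.14 to 0.81), with an edgeR adjusted p of 0.175 (unadjusted 0.0101), and the acinar covariate brought the fold change to 0.37. Mean levels were 5.0 ± 0.844 CPM in wild type against 6.95 ± 0.898 CPM in knockout (SD, n = 4 each).

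The strand of the libraries is not given in the sources used here, so reads shared with a gene on the other strand cannot be told apart. The start regions of Taf1d and 4931406C07Rik, on opposite strands, have 235 bases in common, and Taf1d overlaps Cep295 by 77 bases. 4931406C07Rik was at 6.82, 6.26, 6.36 and 7.12 CPM in wild type and at 7.94, 15.2, 8.13 and 7.16 CPM in knockout, highest in knockout replicate 2, the library with the most liver marker counts. The fold change of 4931406C07Rik was 0.54 ± 0.22 on the log2 scale (SE, adjusted p in edgeR = 0.237), and that of Cep295 was 0.10 ± 0.12 (adjusted p = 0.668). Taf1d itself was lowest of the knockout libraries in replicate 2 as CPM and highest of all libraries there as RPM (4.21). Its log2 fold change was 0.53 without that library.

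The other SL1 and polymerase I genes mostly had negative values. Of 19 tested, 0 passed an adjusted p of 0.05, 5 had a positive and 14 a negative log2 fold change, and the median was -0.07. At an unadjusted p under 0.05 in edgeR there were 2 higher and 1 lower, against 8.42% and 1398 of 13617 among all genes. Taf1c, another SL1 subunit, averaged 2.51 ± 0.175 CPM in wild type against 1.57 ± 0.392 CPM in knockout (SD, n = 4 each), with a log2 fold change of -0.68 ± 0.21 and an edgeR adjusted p of 0.170. Polr2k, a small subunit shared by the nuclear polymerases, had one of 0.50 ± 0.18 (adjusted p = 0.199). Taf1a was listed at 0 counts in every library.

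The H/ACA hosts Snhg3 and Snhg8 had the same 4 highest libraries in the same order as CPM. Snhg8 was at 3.16, 2.44, 2.42 and 2.16 CPM in wild-type replicates 1 to 4 and at 2.24, 3.85, 4.15 and 3.69 CPM in knockout replicates 1 to 4. On the log2 scale Snhg8 differed by 0.46 ± 0.21 (SE, adjusted p in edgeR = 0.268), and the fold of 1.38 had a 95% interval of 0.999 to 1.90. Snhg3, which carries Snora73a and Snora73b, was at 3.16, 2.80, 2.87 and 2.91 CPM in wild type and at 2.53, 4.37, 4.77 and 3.37 CPM in knockout. For both genes knockout replicates 2, 3 and 4 lay above every wild-type library and knockout replicate 1 lay near or below the lowest wild-type value. Snhg3 had a log2 fold change of 0.36 ± 0.20 (95% interval -0.07 to 0.79, edgeR adjusted p = 0.325), and without knockout replicate 1 the values were 0.49 for Snhg3 and 0.60 for Snhg8. Leaving out knockout replicate 3, the highest library of both, gave 0.22 for Snhg3 and 0.36 for Snhg8. As RPM, knockout replicates 2, 3 and 4 also exceeded every wild-type library for both genes, but of these replicate 2 was highest and replicate 3 lowest, and knockout replicate 1 was lowest of all 8 libraries. Knockout replicate 1 had the fewest assigned counts of the 8 libraries.

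Snhg3 overlaps Rcc1, the gene of a chromatin-bound exchange factor for Ran, on the same strand. The overlap covers 5592 of the 5673 bases that Snhg3 spans, so the division of reads between them rests on the authors' counting. Rcc1 averaged 1.28 CPM in wild type against 1.38 CPM in knockout, with a log2 fold change of 0.13 ± 0.25 (edgeR adjusted p = 0.802). Its knockout libraries were at 1.00, 1.79, 1.06 and 1.67 CPM, so that knockout replicate 3, the highest library for Snhg3, was among the lowest for Rcc1.

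Gas5 was named for its rise in growth-arrested cells, and its RNA is known to bind the glucocorticoid receptor. It had the deepest coverage, 342 to 663 counts per library. In wild-type replicates 1 to 4 it was at 21.6, 14.4, 16.2 and 17.1 CPM, and in knockout replicates 1 to 4 at 20.1, 18.5, 20.1 and 19.7 CPM. As CPM the knockout libraries lay above wild-type replicates 2 to 4 and below wild-type replicate 1. As RPM the genotypes were mixed, with 9.82, 10.1, 9.35 and 11.8 in wild type and 9.16, 12.8, 8.58 and 12.4 in knockout, and a log2 ratio of the means of 0.06. The log2 fold change was 0.18 ± 0.12 (SE, 95% interval -0.09 to 0.44), with an edgeR adjusted p of 0.444. It was 0.28 without wild-type replicate 1 (adjusted p = 0.0816, where its alternatives ran from 0.0762 to 1), 0.10 without wild-type replicate 2, and 0.10 with acinar share as covariate. The interval excludes a knockout level above 1.36 times or below 0.938 times that of wild type.

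Snhg1, a host of box C/D snoRNAs, had the same pattern as CPM at a lower level. It was at 1.79, 0.692, 1.28 and 1.40 CPM in wild type and at 1.71, 1.63, 1.72 and 1.73 CPM in knockout. As RPM the order differed, with 0.815, 0.487, 0.739 and 0.968 in wild type and 0.777, 1.13, 0.735 and 1.1 in knockout. Knockout replicates 2 and 4 then lay above every wild-type library, and knockout replicates 1 and 3 did not. The difference of Snhg1, 0.40 ± 0.27 on the log2 scale (SE, adjusted p in edgeR = 0.433), moved to 0.58 without wild-type replicate 1 and to 0.19 without wild-type replicate 2, its lowest library. Slc3a2, an amino acid transporter subunit that starts within 1 kb on the other strand, had a log2 fold change of 0.03 ± 0.12 (adjusted p = 0.908). Zbtb37, which overlaps the start of Gas5 on the other strand by 428 bases, had one of -0.19 ± 0.20 (adjusted p = 0.629).

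The spread of Gas5 and Snhg1 differed between genotypes on the CPM scale. The coefficient of variation of Gas5 was 17.8% in wild type, above the 4.24% of counting error, and 3.99% in knockout, beside 4.50%. For Snhg1 it was 35.3% in wild type and 2.77% in knockout, the latter below the 15.2% of counting error. On the RPM scale Gas5 varied by 10.6% in wild type and by 20.2% in knockout, so the genotype with the wider spread of Gas5 depended on the scaling. For Snhg1 the RPM varied by 26.7% in wild type and 22.1% in knockout, so its coefficient of variation was higher in wild type on both scales. The SD of its RPM was 0.201 in wild type and 0.206 in knockout. Differences in spread were not tested.

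Snhg5, the host of Snord50a and Snord50b, was at 4.01, 3.34, 3.52 and 2.52 CPM in wild type and at 3.94, 4.14, 3.62 and 3.60 CPM in knockout. The ranges overlapped as CPM, since wild-type replicate 1 was above 3 of the knockout libraries, and the log2 fold change was 0.19 ± 0.17 (SE, 95% interval -0.17 to 0.56, edgeR adjusted p = 0.538). Leaving out wild-type replicate 4 gave 0.08 and leaving out wild-type replicate 1 gave 0.28. As RPM, wild-type replicate 1 of Snhg5, at 1.82, was above only knockout replicates 1 and 3, at 1.8 and 1.55. Wild-type replicate 2, at 2.35 RPM, was above those and knockout replicate 4, at 2.27, so the ranges overlapped on this scale too. Snhg12, which carries Snora16a, Snora44, Snora61 and Snord99, was the one gene with a negative value. It had 12, 14, 14 and 13 counts in wild type and 5, 12, 6 and 10 in knockout, or 0.415 ± 0.0514 and 0.318 ± 0.0540 CPM (SD, n = 4 each). As CPM, knockout replicates 1, 3 and 4 were below every wild-type library, and knockout replicate 2 was within their range. As RPM, knockout replicate 4, at 0.203, lay above wild-type replicate 1, at 0.178. The log2 fold change was -0.36 ± 0.33 (95% interval -1.08 to 0.37, edgeR adjusted p = 0.565), and counting error alone was 27.5% in wild type and 34.8% in knockout.

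**Figure D2:**
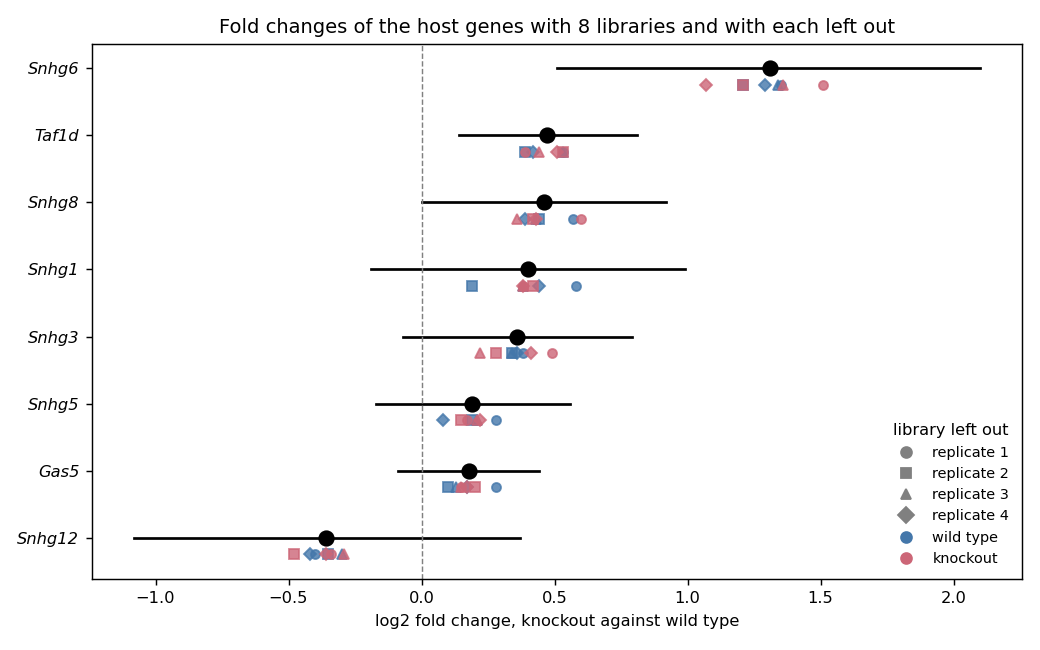
Log2 fold change of each host gene, knockout against wild type (horizontal axis), with all 8 libraries (black, line for the 95% interval) and with each library left out (coloured symbols). Snhg6 lies furthest from 0 at 1.31, and Snhg12 is on the negative side at -0.36 in all fits shown.

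Compared per kilobase of exon, Gas5 was the most abundant and Snhg12 the least abundant of the 8 in wild-type islets. With the longest spliced GENCODE transcript as length, Gas5 was at 26.1 ± 4.63 CPM per kb (SD, n = 4). Snhg3 followed at 5.05 ± 0.272 and Snhg8 at 4.82 ± 0.818, whose ranges overlapped. Snhg5 was at 3.34 ± 0.618, Snhg1 at 1.82 ± 0.643 and Taf1d at 1.6 ± 0.270, and the last 2 did not differ beyond their spread. Snhg6 was at 0.461 ± 0.0691 and Snhg12 at 0.270 ± 0.0334 CPM per kb. With the union of all annotated exons, which includes retained introns, Gas5 was at 4.61 ± 0.818 CPM per kb and the order changed only within the pairs Snhg3 and Snhg8 and Snhg1 and Taf1d. In the knockout Snhg6, at 1.11 ± 0.483 CPM per kb of spliced transcript, kept its place in that order, while by exon union, at 0.792 ± 0.344, it stood above Taf1d and Snhg1.

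Which library was highest for a host gene depended on the scale. As CPM, wild-type replicate 2 was the lowest library for 4 of the 8 genes and no library was highest for more than 2. As RPM, knockout replicate 2 was the highest library for 6 of the 8. Relations to the share of counts on acinar markers were taken on log2 CPM. Over the 8 libraries Gas5 had a Pearson r of 0.81 with that share (exact permutation p = 0.0168, adjusted p = 0.0960 over 8 genes). Its Spearman rho was 0.86 (exact permutation p = 0.0107, adjusted p = 0.0857). Without the 2 libraries farthest from the median share, wild-type replicate 2 and knockout replicate 3, r was 0.73. For Snhg1 r was 0.67 (exact permutation p = 0.0262, adjusted p = 0.0960) and rho 0.81 (p = 0.0218, adjusted p = 0.0871), and for Taf1d r was 0.74 (p = 0.0360, adjusted p = 0.0960) and rho 0.69 (p = 0.0694, adjusted p = 0.185), by the same exact permutation test. Without those libraries r was 0.56 for Snhg1 and 0.54 for Taf1d. The other 5 genes had r from -0.56 to 0.47, with exact permutation p of 0.155 or more, and none of the 8 passed after adjustment. With no composition factor, r for Gas5 was -0.74 and the sign turned for all genes but Snhg12, so these relations rest on the scaling. Each genotype has 4 libraries, too few for a value within it.

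**Figure D3:**
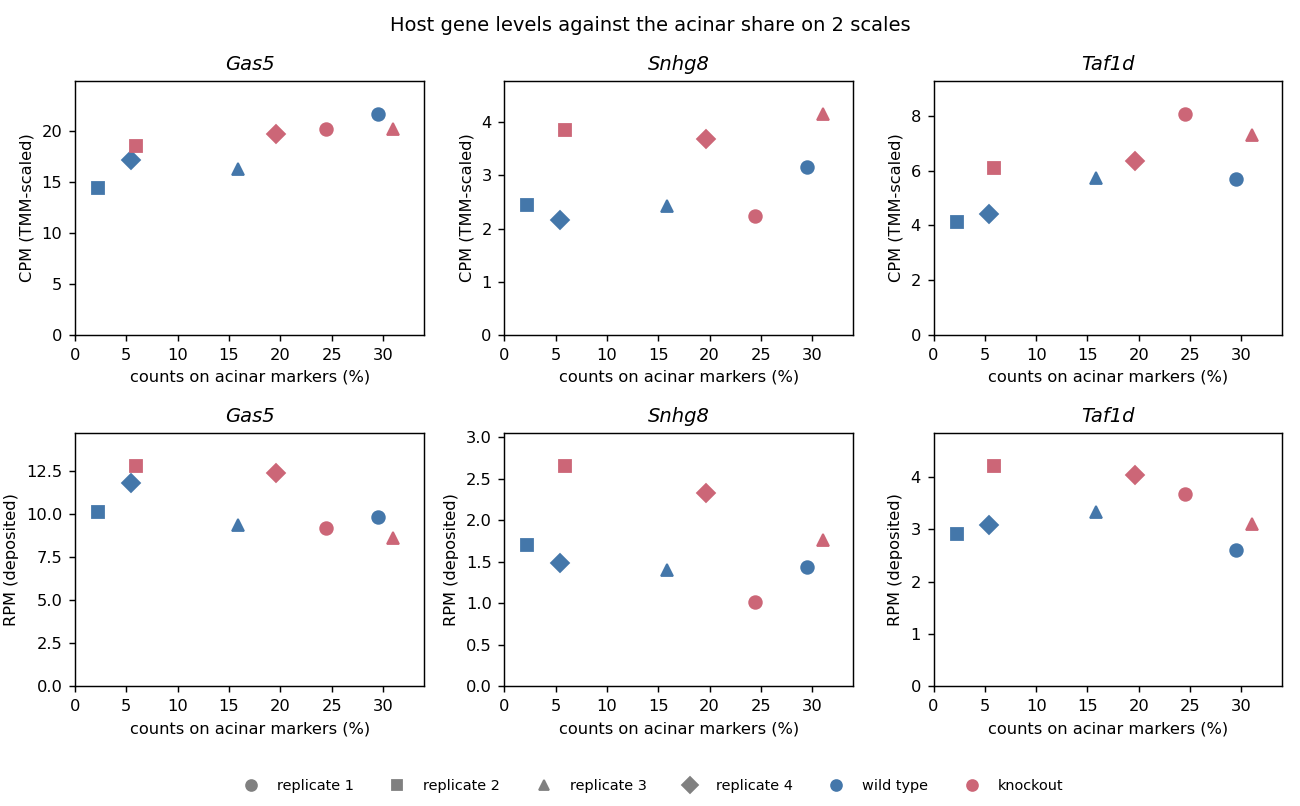
Levels of Gas5, Snhg8 and Taf1d (vertical axes from 0, TMM-scaled CPM above and deposited RPM below) against the percentage of counts on acinar markers, 1 point per library. For Gas5 the points go up with the acinar share as CPM (r = 0.81 on log2 CPM) and down as RPM (r = -0.60 on log2 of the RPM plus 1).

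Other genes listed by name as snoRNA hosts were tested beside the 8, and whether each holds a snoRNA was not looked up. Among all genes tested 51.3% had a positive value. At an unadjusted p under 0.05 in edgeR 8.42% of all genes were higher and 1398 of 13617 lower. Of 15 other noncoding hosts 12 had a positive log2 fold change, with a median of 0.13, and 0 passed an adjusted p of 0.05 in edgeR (1 higher and 0 lower at an unadjusted p under 0.05). Snhg14, the long host RNA of the Prader-Willi region, had the smallest p, with 0.414 ± 0.128 CPM in wild type against 0.709 ± 0.138 CPM in knockout (SD, n = 4 each; log2 difference 0.77 ± 0.33, adjusted p in edgeR = 0.243). Mirg, an imprinted noncoding gene, had a log2 fold change of -0.29 ± 0.14 (adjusted p = 0.280). The median of the other noncoding hosts was 0.04 without knockout replicate 3 and 0.27 without wild-type replicate 1. With no composition factor it was 0.04, where all genes had a median of -0.111, and with limma-trend on log2 RPM plus 0.1 it was -0.04, where all genes had one of -0.131.

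Protein-coding hosts outside the ribosome had 25 positive values of 33 and a median of 0.12, with 0 past the adjusted threshold. At an unadjusted p under 0.05 in edgeR 6 were higher, against 8.42% of all genes, and 1 was lower. Eif4a2, a translation initiation helicase, averaged 49.4 ± 4.78 CPM in wild type against 60.8 ± 4.91 CPM in knockout (log2 difference 0.30 ± 0.10, adjusted p in edgeR = 0.177), and Hspa9, the mitochondrial chaperone mortalin, had a log2 fold change of 0.32 ± 0.12 (adjusted p = 0.199). Ribosomal protein hosts had 18 positive values of 21 and a median of 0.25, with 0 genes at an unadjusted p under 0.05 in edgeR. Rpl7a and Rpl5 had log2 fold changes of 0.40 ± 0.19 and 0.56 ± 0.26 (adjusted p = 0.282 and 0.288). Without wild-type replicate 1 the ribosomal hosts had 21 positive values, a median of 0.46 and 4 of 21 genes past the threshold, and without wild-type replicate 2 the median was 0.16. The protein-coding hosts outside the ribosome had 6 of 33 genes past the threshold without wild-type replicate 1. In that fit 9.46% of all genes passed. With the acinar share as covariate the median was 0.11 for ribosomal hosts, 0.06 for protein-coding hosts outside the ribosome and 0.08 for other noncoding hosts. A difference between the 8 genes and these lists was not tested.

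**Figure D4:**
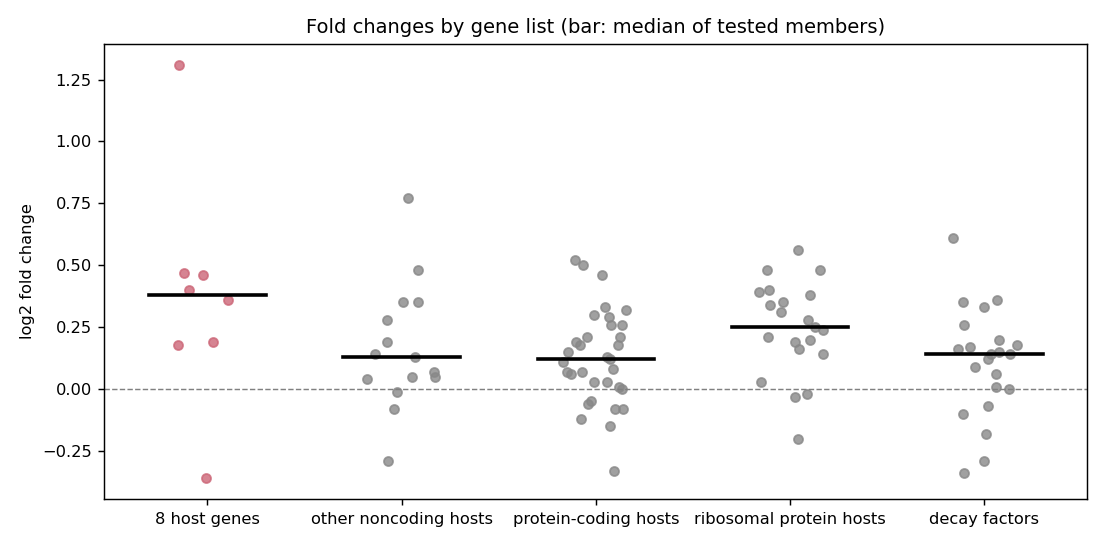
Log2 fold change, knockout against wild type, of each tested gene (points), with a bar at each median. Shown are the 8 host genes, 3 other groups listed by name as snoRNA hosts and the nonsense-mediated decay factors. The medians are 0.38, 0.13, 0.12, 0.25 and 0.14 from left to right.

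Genes of the processes that act on host RNA were followed as lists, which share some genes. Of the protein-coding hosts outside the ribosome, 8 are also among the TOP messenger RNAs or the particle proteins below. Nonsense-mediated decay factors had 17 positive values of 22 and a median of 0.14, with 0 past an adjusted p of 0.05 in edgeR. At an unadjusted p under 0.05 there were 4 higher and 1 lower. Among all genes 51.3% were positive, with 8.42% higher and 1398 of 13617 lower at that limit. Magoh, a core protein of the exon junction complex, averaged 3.61 ± 0.775 CPM in wild type against 5.48 ± 1.10 CPM in knockout (log2 fold change 0.61 ± 0.19, adjusted p = 0.171), and the decapping enzyme gene Dcp2 had a log2 fold change of 0.35 ± 0.11 (adjusted p = 0.164). Transcripts known to be sensitive to that decay, 3 of which are host genes of this study, had 13 positive values of 21 and a median of 0.10, with 2 higher and 1 lower at an unadjusted p under 0.05. Among them the splicing regulator Tra2b had a log2 fold change of 0.43 ± 0.14 (adjusted p = 0.172), and the decay factor Upf2 one of 0.26 ± 0.10 (adjusted p = 0.212).

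Other TOP messenger RNAs had 17 positive values of 22 and a median of 0.11, with 0 past the adjusted threshold in edgeR. At an unadjusted p under 0.05 there were 6 higher, against 8.42% of all genes, and 0 lower. Btf3, a subunit of the nascent chain-associated complex, averaged 21.8 ± 3.27 CPM in wild type against 31.0 ± 3.03 CPM in knockout (log2 fold change 0.51 ± 0.12, adjusted p = 0.123), and the initiation factor subunit Eif3e had a log2 fold change of 0.47 ± 0.15 (adjusted p = 0.173). Core and assembly proteins of box C/D and H/ACA particles had 12 positive values of 19 and a median of 0.08, with 1 gene higher at an unadjusted p under 0.05. That gene, the assembly factor Nufip1, had a log2 fold change of 0.44 ± 0.19 (adjusted p = 0.255), and Nhp2l1, which binds box C/D RNA, one of -0.19 ± 0.10 (adjusted p = 0.303). The glucocorticoid-induced genes were followed because Gas5 binds the glucocorticoid receptor. They were listed with earlier results of these data known, so their direction is a description only. The list includes Nr3c1, the gene of the receptor itself. The 15 genes had 13 positive values and a median of 0.56, with 0 past the adjusted threshold. At an unadjusted p under 0.05 in edgeR 6 were higher, against 8.42% of all genes, and 1 was lower. Tsc22d3 and the transcription factor gene Klf9 had log2 fold changes of 0.76 ± 0.14 and 0.73 ± 0.15 (edgeR adjusted p = 0.116 for each). Without wild-type replicate 1, 2 of 22 decay factors, 2 of 21 decay-sensitive transcripts, 4 of 22 TOP messenger RNAs and 5 of 15 glucocorticoid-induced genes passed in edgeR, against 9.46% of all genes in that fit. With limma-trend on log2 RPM plus 0.1 the median was -0.01 for decay factors, -0.02 for decay-sensitive transcripts, -0.03 for TOP messenger RNAs and -0.05 for the particle proteins, while it was 0.31 for glucocorticoid-induced genes and 0.15 for ribosomal hosts. The median of all genes was -0.131 in that setting, below that of each of these lists, and 0.01 in the main scaling.

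By likeness over the 8 libraries (Pearson r of log2 CPM, among 5103 genes of at least 10 CPM on average, given as a description), the genes closest to Snhg6 were Ywhab (r = 0.969), Arpc1a (0.967) and Psmb4 (0.961). Closest to Taf1d were Pik3c2g (0.978), Mthfd2 (0.961) and Tpp2 (0.955), and closest to Gas5 were Impad1 (0.959), Mrpl50 (0.957) and Nol8 (0.955). Laptm4a (0.989), Vma21 (0.977) and Gatc (0.975) stood nearest to Snhg8, and Ubr2 (0.971), Dopey1 (0.964) and Topors (0.955) nearest to Snhg3. For Snhg1 they were Ibtk (0.974), Ppp6c (0.972) and Caprin1 (0.955), for Snhg5 Usp32 (0.930), Klhl7 (0.929) and Atl3 (0.928), and for Snhg12 Tmem176b (0.964), Depdc5 (0.940) and Gpatch2 (0.937). Such values come from the best of many genes over 8 points that share library depth and tissue makeup.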

How the data were processed

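RNA of 8 islet libraries, 1 per mouse, was sequenced from SeqPlex libraries, as the labels' protocols state. STAR 2.4.1, Partek and mm9 come from the submitters' processing notes. Annotation, strand and counting rule were not given in the sources used. The authors deposited estimated counts per gene, of which 9.98 to 12.4% per library were not whole within 0.01; they were rounded. The authors also deposited RPM, in which each value less 0.0001 was the count over 1 constant per library, equal to 37.3 to 67.5 M reads (M, 1000000).

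Genotypes were compared on the counts by edgeR 4.0.16, run in R 4.3.3 (TMM, filterByExpr, robust quasi-likelihood F-test of genotype, Benjamini-Hochberg over 13617 genes, threshold 0.05). The SE comes from the F statistic, the interval from its t distribution. The test was checked on simulated counts with the same dispersion for all genes and no differences in makeup between libraries. Changes were planted only in genes with higher mean counts than Snhg6 and Snhg12, so the check does not cover those genes. Counting error is 100 over the root of the mean count, in percent, and covers counting only. The 8 genes and all lists were chosen with earlier results of these data known; a list's genes were named if past the threshold, otherwise the 2 of smallest p. Liver markers were added later. Gene neighbours and lengths came from GENCODE M21 (GRCm38) by symbol. Alternatives were other scalings, filters, DESeq2 1.42.0, limma 3.58.1, covariates, a replicate block and left-out libraries.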

Additional observations from a re-analysis of the deposited data

How the results depend on the processing

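Of 198 log2 fold changes of the 8 host genes under alternatives, 0 changed sign and 197 stayed on the same side of an adjusted p of 0.05. The exception was Taf1d at 0.60 with both wild-type replicate 1 and knockout replicate 2 left out (edgeR adjusted p = 0.0496, where its alternatives ran from 0.0496 to 1), a setting chosen after seeing the data, so that 1 host gene passed there and 0 elsewhere. DESeq2 gave no adjusted p for Snhg1, Snhg6 and Snhg12, and a filter of 10 CPM left Gas5 alone, so no median was made there. The median over the host genes was 0.14 and 0.22 with limma-trend on log2 RPM plus 1 and plus 0.1, a scale that understates changes of low genes, and 0.27 to 0.46 with each library left out. The median of all genes was -0.111 with no composition factor and -0.131 with limma-trend plus 0.1. The count of genes past the threshold, 2, was 48 with no composition factor, 1 with the 10 CPM filter, 526 with DESeq2, 549 with library weights, and 51 and 58 with limma-trend plus 1 and plus 0.1. It was 2 to 1313 with each library left out, the highest lacking wild-type replicate 1 and 5 lacking knockout replicate 4, and 1296 without wild-type replicate 1 and knockout replicate 2 together. The cause was not tested.

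With the replicate block the count was 2, the median 0.39 and no host gene call changed. Same-numbered libraries had correlations of their deviations from 0.038 to 0.21, not all above 0.1. Wild-type replicates 2, 3 and 4 each correlated best with the knockout library of the same number (0.21, 0.156 and 0.147). Wild-type replicate 1 correlated best with knockout replicate 3 (0.287). The labels give no pairing, and the numbers were not taken to pair the libraries in the main fit.

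The correlation with the acinar share turned sign with no composition factor for Gas5 (-0.74), Snhg1 (-0.14), Snhg3 (-0.63), Snhg5 (-0.71), Snhg6 (-0.23), Snhg8 (-0.45) and Taf1d (-0.41), and with log2 RPM plus 1 for the same genes (-0.60, -0.01, -0.53, -0.63, -0.16, -0.33 and -0.19). For Snhg12 it passed with no composition factor (-0.91, exact permutation adjusted p = 0.0246) and not with log2 RPM plus 1 (-0.88, adjusted p = 0.0611). Depth limits Snhg6 and Snhg12, at 5 to 41 counts per library.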

Other observations

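The 8 host genes together took 0.00299 to 0.00527% of assigned counts, highest in knockout replicate 2 and lowest in knockout replicate 3. In the 5 libraries with low Xist alone, chosen after seeing the data, the median log2 fold change of the host genes was 0.39, with Snhg3 at 0.63, Snhg6 at 1.33 and Taf1d at 0.37. Relative to the wild-type mean, the median over the 8 genes was 0.24 in wild-type replicate 1, above knockout replicate 1 at 0.18 and below the other 3 knockout libraries at 0.28 to 0.51. In the other 3 wild-type libraries it was -0.16 to 0.07.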
